A study of Mus musculus with 594 samples.

Results

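Dusp1, Dusp2, Dusp4, Dusp6 and Dusp10 encode dual-specificity phosphatases of mitogen-activated protein kinases (MAPKs). They were followed in a pair of mouse pancreatic endocrine lines under 29 chromatin-targeting compounds. The genes were given by name, with no threshold on a measured value, and each was matched by its symbol to the probe sets of the array. 4 of the 5 had a probe set: Dusp1 (1448830_at), Dusp2 (1450698_at), Dusp6 (1415834_at) and Dusp10 (1417164_at, with 1417163_at as a dimmer probe set), out of 11807 genes measured. Dusp4 is not analysed here.

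These phosphatases remove phosphate from both the threonine and the tyrosine of the activation loop of a MAPK, and so switch it off. Most are themselves transcribed when the pathway fires, which makes their mRNA a feedback signal. Dusp1 is a nuclear enzyme and an immediate early gene that acts on p38, JNK and ERK. Dusp2 is nuclear as well and best known from lymphoid cells. Dusp6 is cytoplasmic and acts on ERK, and Dusp10 acts on p38 and JNK. In endocrine cells of the pancreas ERK and cAMP signals follow glucose and incretin hormones.

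αTC1 is a glucagon-producing and βTC3 an insulin-producing tumour line, both derived from mice that carry an SV40 T antigen transgene, and each line stands for a single culture. Cells in low-glucose medium received a compound in DMSO, or DMSO alone, for 1, 6 or 24 h. RNA was then hybridised to Affymetrix arrays, 299 for αTC1 and 295 for βTC3. For each line and time DMSO was represented by 10 to 14 arrays. Of the groups that received a compound, 168 had 3 arrays, 5 had 2 and 1 had 4. The study compared compounds with DMSO to find the genes that respond when chromatin-modifying enzymes are blocked.

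Each compound was given at 1 dose, so potency and identity cannot be told apart. The 8 hydroxamic acids, which inhibit histone deacetylases, were trichostatin A (0.22 µM), SAHA (1.3 µM), LBH-589 (0.015 µM), PXD101 (2.4 µM), ITF-2357 (10 µM), CRA-024781 (1.5 µM), pyroxamide (10 µM) and scriptaid (2 µM). The 3 ortho-amino anilides, deacetylase inhibitors of another structure, were MS-275 (2.9 µM), CI-994 (10 µM) and MGCD-0103 (1.1 µM). The 2 cyclic tetrapeptides, also deacetylase inhibitors, were apicidin (1.4 µM) and HC-toxin (0.12 µM). Chaetocin (1.7 µM) and BIX-01294 (10 µM) are directed at histone lysine methyltransferases, AMI-1 (10 µM) at arginine methyltransferases, and 5-azadeoxycytidine, zebuarine and RG-0108 (each 10 µM) at DNA methylation. The other 10 carry code names only: BRD-A94377914 (3 µM), BRD-K17311666 (4.3 µM), BRD-K22912318 (5 µM), BRD-K62233722 (3.7 µM), BRD-K90919562 (4.1 µM), BRD-K92415738 (3.2 µM), BRD6929 (0.91 µM), and BRD5298, BRD8451 and BRD9773 (10 µM each).

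Levels are log2 intensities, and changes are log2 differences from DMSO of the same line and time, given ± SE from limma with the 7 batches of the labels as a term. Genes with a Benjamini-Hochberg adjusted p under 0.05 were called. All compounds of a line and time share their DMSO arrays, and class means mix doses. Where arrays of a class are counted beyond the DMSO range, the share of all genes so placed was not computed. Such counts are a description of the members. Nothing in the labels says that arrays of a group came from separate cultures, so p-values measure only the spread between arrays, which may be technical.

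The line labels were checked in DMSO. The glucagon gene Gcg lay at 11.90 to 12.88 in αTC1 and at 6.18 to 10.67 in βTC3. The insulin gene Ins2 lay at 3.31 to 7.75 and at 13.01 to 13.49. At 1 h 4 of 6 alpha cell markers were higher in αTC1 and 1 was lower, and all 8 beta cell markers were lower. Of 5 markers of other islet hormone cells 2 were higher in αTC1 and 2 lower. Among these 5 the somatostatin gene Sst lay at 3.30 to 6.27 in αTC1 and at 12.42 to 12.98 in βTC3, so βTC3 held much mRNA of a hormone other than insulin. The alpha cell marker that was lower was Ttr, at 10.90 to 11.91 in αTC1 and 12.66 to 12.99 in βTC3. In βTC3 it was the brightest of its list and made up most of that list's summed intensity in DMSO. Slc38a5, another alpha cell marker, stayed between 2.87 and 3.55 in both lines, at the bottom of the scale. Of 11 markers of non-endocrine cells 1 was higher and 1 lower, and their summed linear intensity at 1 h lay between 91.7 and 120 in αTC1 and between 88 and 108 in βTC3. In bulk RNA fewer cells of a type and less RNA per cell cannot be told apart.

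The 250 bases upstream of the annotated start (RefSeq, build GRCm38.p6) are shown for Dusp1, at chr17:26508473-26508722 on the minus strand, and Dusp6, at chr10:99262981-99263230 on the plus strand. They are the pair of members that fell together at 1 h. Both run 5′ to 3′ in the direction of the gene and end at the base before its start. Capitals mark TGACG, the half-site of the cAMP response element, on either strand.

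Dusp1: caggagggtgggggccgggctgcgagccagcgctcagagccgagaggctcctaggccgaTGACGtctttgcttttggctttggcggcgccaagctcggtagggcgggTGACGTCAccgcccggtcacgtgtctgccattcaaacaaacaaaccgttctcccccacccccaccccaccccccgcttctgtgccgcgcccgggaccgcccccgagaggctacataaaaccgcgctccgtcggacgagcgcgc
Dusp6: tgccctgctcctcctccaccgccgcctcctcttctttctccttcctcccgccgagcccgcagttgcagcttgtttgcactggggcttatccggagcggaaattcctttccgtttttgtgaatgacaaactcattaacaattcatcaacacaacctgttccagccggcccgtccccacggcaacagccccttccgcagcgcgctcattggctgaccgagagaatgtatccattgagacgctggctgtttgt

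Dusp1 held 3 matches to TGACG, at 191, 143 and 140 bases upstream, of which the last pair overlap to form the full palindrome TGACGTCA. Dusp6 held none, and neither did Dusp2 or Dusp10. Of 32851 mouse promoters of the same length, 17.8% held at least 1 match. GGGCGG, the GC box, was matched 3 times in Dusp1, 3 times in Dusp2, 2 times in Dusp10 and not in Dusp6 (32.7% of promoters). CACGTG, an E-box, was matched 1 time in Dusp1 and 1 time in Dusp2 (6.02%), and CCGGAA, an ETS site, in no member (12%). Both strands were searched. A match describes letters in this window and does not show that a factor binds there.

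In DMSO, Dusp1 was the member that separated the lines most. Its level at 1 h was 9.61 ± 0.23 (SD, n = 14) in αTC1 and 8.08 ± 0.22 (SD, n = 12) in βTC3. At 6 h it was 9.24 ± 0.17 (SD, n = 14) and 7.85 ± 0.26 (SD, n = 10), and at 24 h 9.23 ± 0.19 (SD, n = 14) and 8.15 ± 0.30 (SD, n = 12). The lowest αTC1 array of any time, 8.90, was above the highest βTC3 array, 8.62, so the lines did not overlap. The difference between the lines was 1.55 ± 0.08 at 1 h (2.93-fold, adjusted p = 1.53e-15), 1.38 ± 0.087 at 6 h and 1.07 ± 0.075 at 24 h.

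Dusp6 was also higher in αTC1 (7.02 ± 0.33 against 6.48 ± 0.58 at 1 h, SD, n = 14 and 12), but single arrays of the lines overlapped. The fitted difference was 0.52 ± 0.17 at 1 h (adjusted p = 0.0104), 0.50 ± 0.20 at 6 h and 0.71 ± 0.15 at 24 h. Dusp10 differed at 24 h only, by 0.36 ± 0.10 (adjusted p = 0.00366), and Dusp2 at no time. At 1 h 2 of the 4 members were called, against 58.8% of all genes, so a difference between the lines was common to most genes (58.6% at 6 h and 59.6% at 24 h).

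Dusp6 fell with time in DMSO in both lines. In αTC1 its level went from 7.02 at 1 h to 6.39 ± 0.64 at 6 h and 6.02 ± 0.53 at 24 h, a fall by 0.63 ± 0.11 and by 1.00 ± 0.11 (2-fold, adjusted p = 7.51e-09). In βTC3 it went from 6.48 to 5.86 ± 0.55 and 5.27 ± 0.49, a fall by 0.59 ± 0.14 and by 1.18 ± 0.13 (2.27-fold, adjusted p = 1.45e-07). Dusp1 fell in αTC1 by 0.37 ± 0.074 at 6 h and by 0.38 ± 0.074 at 24 h. Its values in βTC3 were -0.22 ± 0.082 and 0.06 ± 0.077, neither of them called. Dusp10 fell in βTC3 at 24 h, by 0.33 ± 0.11 (adjusted p = 0.041).

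These 7 changes over time stood among few others: 2 of 4 members were called in αTC1 at 6 h and 2 at 24 h, against 2.87% and 7.28% of genes. In βTC3 the counts were 1 and 2, against 1.65% and 10.5%. Without the batch term 4 of the 7 calls were made. Every change below is therefore set against DMSO of its own time.

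**Figure D1:**
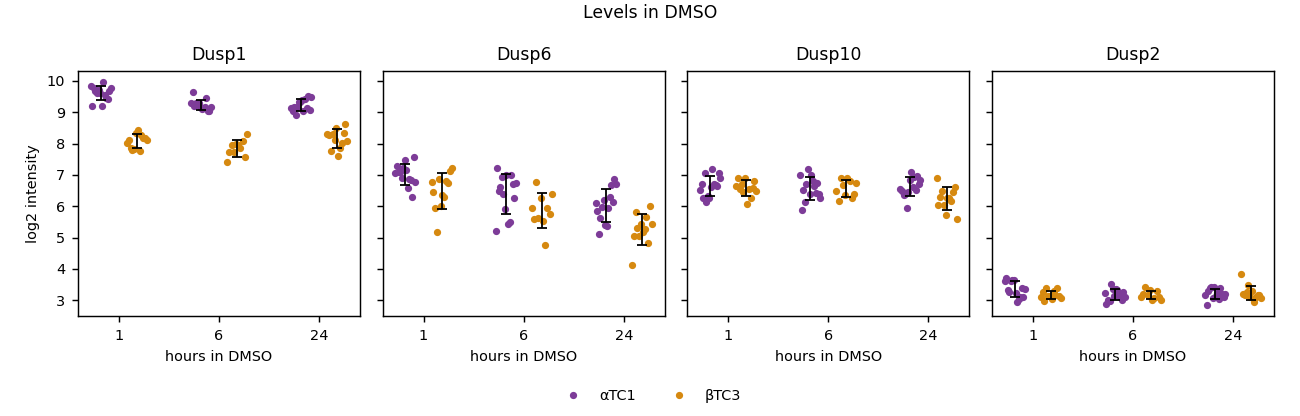
Log2 intensity (vertical axis) of 4 phosphatase genes in DMSO arrays against hours in DMSO, 1 point per array, αTC1 in purple and βTC3 in orange, with bars for the mean ± SD of 10 to 14 arrays. Dusp1 separates the lines without overlap, Dusp6 falls from 1 h to 24 h in both, and Dusp2 lies near 3.2 throughout.

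Across compounds, calls were rare at 1 h and common later. At 1 h 6 of 116 gene and compound pairs were called in αTC1, all of them falls of Dusp1, against 0.0327% of all pairs (0.0216% up and 0.0111% down). In βTC3 none of 116 was called by limma, against 0.0943% (0.071% up and 0.0234% down). There 18 of the 116 had an unadjusted p under 0.05, and in αTC1 34. By compound, 265 to 2280 of 11807 genes had such a p in βTC3 and 170 to 1373 in αTC1. At 6 h 16 pairs were called in αTC1, 3 up and 13 down, against 20.8% (11.2% up and 9.58% down). In βTC3 32 were called at 6 h, 6 up and 26 down, against 22.1% (11.3% up and 10.7% down). At 24 h 30 were called in αTC1, 28 up and 2 down, against 21.3% (10.6% up and 10.7% down). In βTC3 37 were called at 24 h, 31 up and 6 down, against 18.2% (9.49% up and 8.73% down). The members' share called was below that of all genes at 6 h in αTC1 and above it at 6 h in βTC3 and at 24 h in both lines, a description of 4 genes with no test.

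The members' calls went mainly down at 6 h and mainly up at 24 h. Over all lines, times and compounds Dusp6 was called 47 times (29 up, 18 down), Dusp1 in 46 (19 up, 27 down), Dusp10 in 26 (18 up, 8 down) and Dusp2 in 2. The share of all genes called over these pooled comparisons was not computed. By line and time it ran from 0.0327% (αTC1 at 1 h) to 22.1% (βTC3 at 6 h). The totals therefore describe the members and do not show that any was called more often than other genes. Many calls were lost in leave-outs. These either dropped the arrays of 1 replicate number from every compound at once, or dropped a single DMSO array. Of the 6 calls at 1 h in αTC1, 1 was made every time, as were 7 of 16 and 20 of 32 at 6 h and 14 of 30 and 18 of 37 at 24 h (αTC1 and βTC3). Statements below about whichever array was left out refer to these leave-outs, so a lost call does not show that it rested on a single array. Without replicate 2 the count at 1 h in αTC1 was 1 and that at 24 h in βTC3 was 23, and without replicate 3 the count at 6 h in αTC1 was 10. Without the batch term 1 call was made at 1 h in αTC1 and 19 at 6 h in βTC3.

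**Figure D2:**
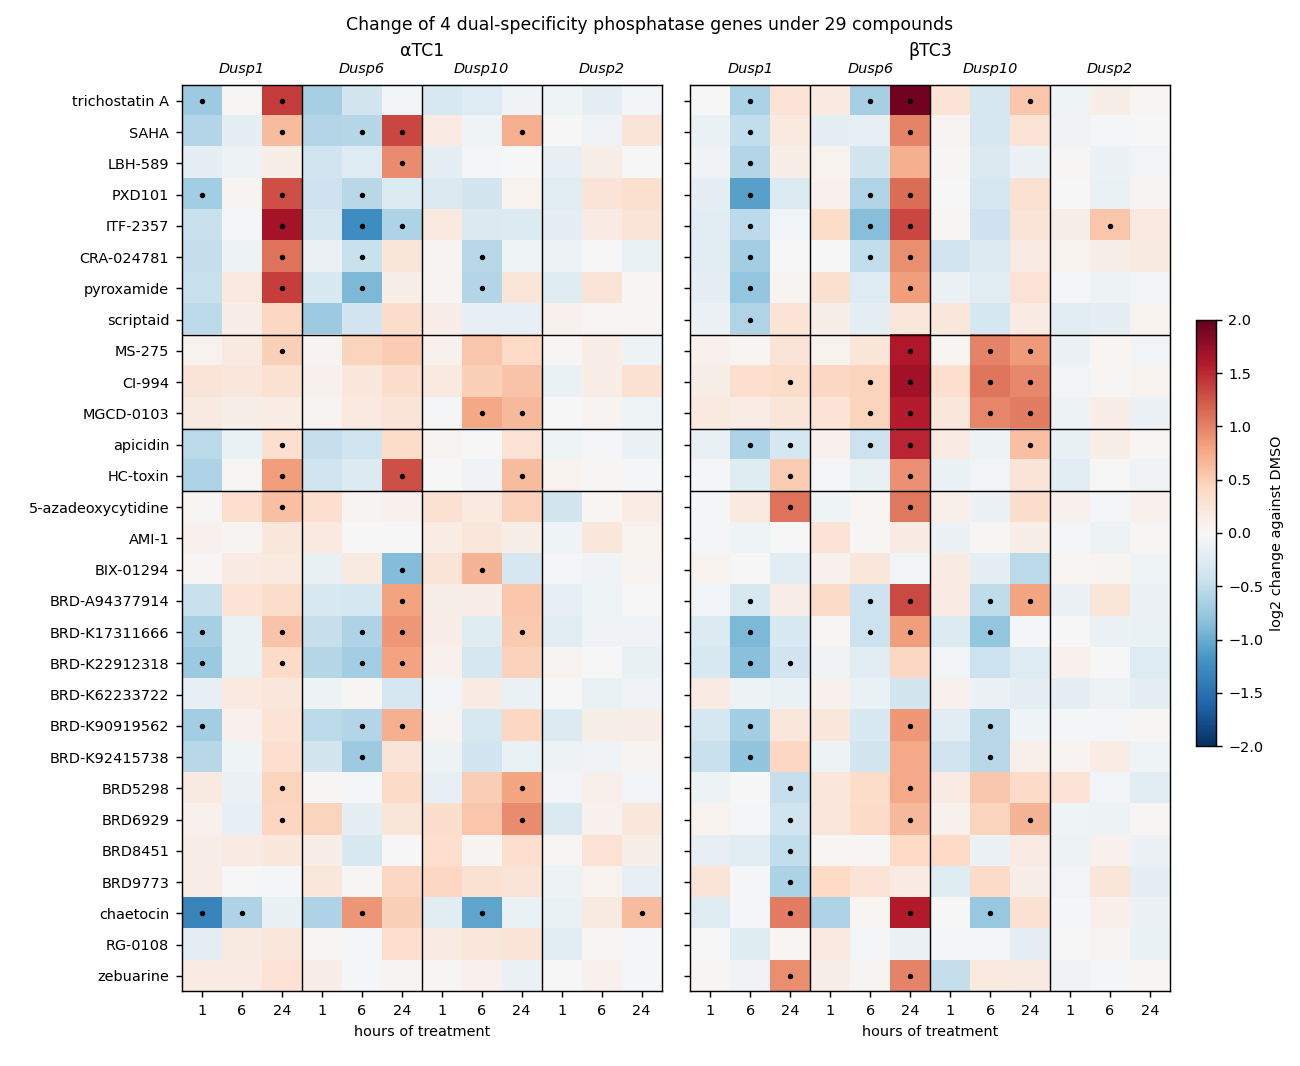
Log2 change against DMSO (colour, red up and blue down) of Dusp1, Dusp6, Dusp10 and Dusp2 at 1, 6 and 24 h (columns) under 29 compounds (rows, grouped as hydroxamic acids, ortho-amino anilides, cyclic tetrapeptides and others) in αTC1 and βTC3, with a dot where limma's adjusted p was under 0.05. At 1 h the dots are 6 falls of Dusp1 in αTC1, and at 24 h in βTC3 Dusp6 carries 19 dots, all red.

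Dusp1 fell within 1 h in αTC1. DMSO arrays ranged from 9.19 to 9.97 with a median of 9.65. The 3 chaetocin arrays were at 7.99, 8.41 and 8.48, all below every DMSO array, a change of -1.33 ± 0.14 (2.52-fold lower, adjusted p = 6.30e-11), where 0.11% of all genes were called. The fall was called whichever array was left out. The same compound in βTC3 gave 7.80, 7.96 and 8.01, inside the DMSO range of 7.78 to 8.44, and a change of -0.24 ± 0.11 that was not called.

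The other 5 calls were falls of 1.59-fold to 1.66-fold. Trichostatin A arrays were at 9.17, 8.62 and 8.84 (-0.73 ± 0.13, adjusted p = 0.00418). PXD101 arrays were at 8.53, 9.03 and 9.11 (-0.70 ± 0.13, adjusted p = 0.00678). The code-named compounds BRD-K22912318 (-0.74 ± 0.13), BRD-K90919562 (-0.69 ± 0.13) and BRD-K17311666 (-0.67 ± 0.13) had adjusted p of 0.00118, 0.00451 and 0.00869. Of all genes 0.102% were called under trichostatin A, 0.0847% under PXD101 and 0.0762%, 0.0678% and 0.0423% under the code-named compounds.

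All arrays of trichostatin A, PXD101, BRD-K22912318 and BRD-K90919562 lay below the DMSO range, and 1 array of BRD-K17311666, at 9.27, lay inside it. Each of the 5 calls was lost without replicate 2 and without the batch term. BRD-K92415738, at 9.07, 8.94 and 9.16, also lay below all DMSO arrays but was not called (-0.55 ± 0.13, adjusted p = 0.0786). In all, 6 of 29 compounds had every Dusp1 array below DMSO, against 0.147% of all gene and compound pairs. In βTC3 1 did, BRD-K92415738 (-0.44 ± 0.11, adjusted p = 0.0535), against 0.242%.

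**Figure D3:**
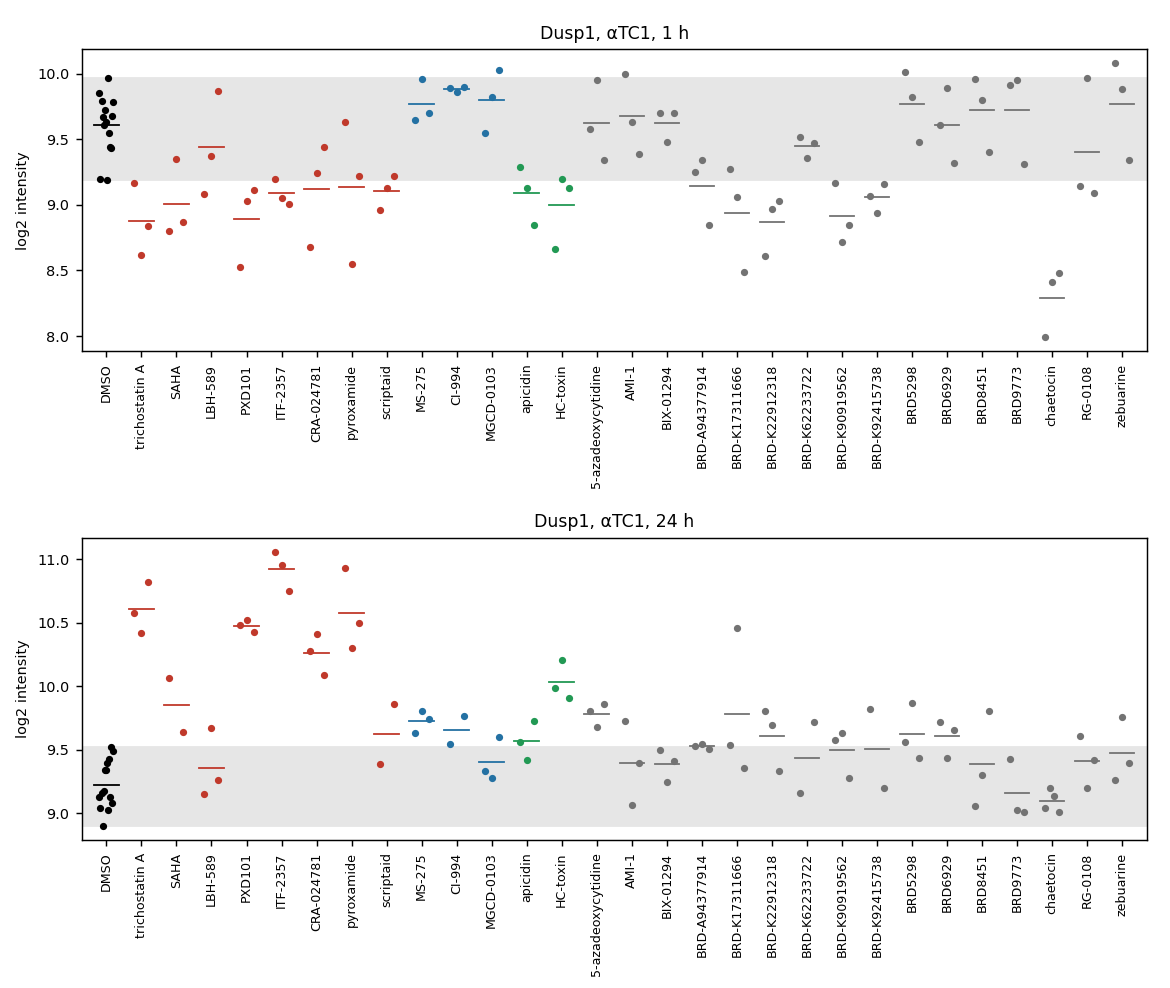
Log2 intensity of Dusp1 in αTC1 at 1 h (upper) and 24 h (lower) for DMSO and each compound, 1 point per array, a bar for the group mean and a grey band for the DMSO range; hydroxamic acids are red, ortho-amino anilides blue, cyclic tetrapeptides green and others grey. At 1 h chaetocin lies lowest, at 7.99 to 8.48, and at 24 h ITF-2357 lies highest, at 10.75 to 11.06.

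Over the class of hydroxamic acids, the mean of both Dusp1 and Dusp6 fell at 1 h in αTC1. Dusp1 ranged over their 24 arrays from 8.53 to 9.87 with a median of 9.09, and 15 of the 24 lay below every DMSO array. The class change was -0.51 ± 0.069 (1.42-fold lower, adjusted p = 3.87e-07), with all 8 compounds below 0 (-0.73 to -0.19). Dusp6 ranged from 5.54 to 7.74 with a median of 6.54, against 6.31 to 7.56 and a median of 7.07 in DMSO. Its groups overlapped, and the class change was -0.44 ± 0.083 (1.36-fold lower, adjusted p = 7.22e-04), again with all 8 compounds below 0 (-0.72 to -0.11).

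Within batches the Dusp1 difference ran from -0.76 to -0.18 and was below 0 in 7 of 7, and that of Dusp6 ran from -0.89 to 0.12 and was below 0 in 6 of 7. Both calls were kept whichever replicate or compound was left out. Dusp6 lost its call without the batch term (-0.47, adjusted p = 0.0866). 2 of the 4 members were called, against 0.593% of all genes (0.237% down). No single compound's change of Dusp6 was called at 1 h, the nearest being scriptaid (-0.72 ± 0.16, adjusted p = 0.0601) and trichostatin A (-0.66 ± 0.16, adjusted p = 0.0723).

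In βTC3 the same class gave -0.14 ± 0.062 for Dusp1 and 0.12 ± 0.093 for Dusp6 at 1 h, neither called (0.906% of all genes were). The difference between the lines was called for Dusp6, -0.57 ± 0.13 (adjusted p = 0.0122, against 0.186% of all genes), but not for Dusp1, -0.37 ± 0.094 (adjusted p = 0.0657). The former lost its call without replicate 1 (adjusted p = 0.108) or replicate 2 (0.129) and without the batch term (-0.63). It was also lost with the array plate as a random block in place of the batch term (-0.66, adjusted p = 0.428). Chaetocin's effect on Dusp1 differed between the lines by -1.09 ± 0.18 (adjusted p = 9.56e-05, against 0.0254% of all genes). Without the batch term that value was -1.16 (adjusted p = 0.0997).

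The other classes of deacetylase inhibitor are given beside these at 1 h. The ortho-amino anilides gave 0.17 ± 0.093 for Dusp1 and 0.06 ± 0.11 for Dusp6 in αTC1, and 0.14 ± 0.08 and 0.25 ± 0.12 in βTC3, none of them called by limma (0.0169% and 0.0254% of all genes were). The cyclic tetrapeptides lowered Dusp1 in αTC1 by 0.57 ± 0.10 (adjusted p = 0.00639, against 0.0593% of all genes), with apicidin at -0.54 and HC-toxin at -0.61. That call was lost without replicate 1 (adjusted p = 0.0982) or without either compound, and without the batch term. In βTC3 the value was -0.09 ± 0.087 (0.0254% of all genes called). Their value for Dusp6 in αTC1 was -0.43 ± 0.13 (adjusted p = 0.471). Differences between classes were not tested.

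Dusp10 and Dusp2 had no call at 1 h. Dusp10 changed by -0.32 to 0.42 in αTC1 and by -0.47 to 0.40 in βTC3, and Dusp2 by -0.37 to 0.08 and by -0.23 to 0.27. The mean of the hydroxamic acids was -0.02 ± 0.10 and 0.01 ± 0.098 for Dusp10. The intervals (95%, -0.22 to 0.17 and -0.18 to 0.20) exclude a change of the size seen for Dusp1 in αTC1.

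Other genes of the pathway were set beside the members at 1 h under the hydroxamic acids. In αTC1 none of 4 other dual-specificity phosphatases, 6 ERK feedback inhibitors, 11 MAPK cascade kinases and 13 ERK-responsive immediate early genes was called, with median changes of -0.04, 0.06, 0.02 and 0.07 against 0.00 for all genes. Of 8 cAMP and CREB target genes the clock gene Per1 rose (0.28 ± 0.074, adjusted p = 0.0446).

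In βTC3, where neither Dusp1 nor Dusp6 was called, 4 of the 13 immediate early genes rose. They were Ier3 (1.00 ± 0.089), Junb (0.74 ± 0.093), Ier2 (0.61 ± 0.086) and Fos (0.46 ± 0.091, adjusted p = 9.27e-04), where Junb and Fos encode subunits of the transcription factor AP-1. Per1 (0.46 ± 0.078) and Rgs2, a regulator of G protein signals (0.32 ± 0.077), rose as well. Under chaetocin in αTC1 Ier3 fell (-0.67 ± 0.15, adjusted p = 0.0272) with Dusp1, and no other gene of these lists was called. No marker of alpha, beta, other islet or non-endocrine cells was called under the hydroxamic acids at 1 h in either line. The summed non-endocrine intensity in αTC1 was 91.6 to 120, and 91.7 to 120 in DMSO.

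At 1 h the members were also compared over the 30 group means of a line (29 compounds and DMSO, adjusted for batch). These means share arrays of the same batches, and r is given as a description. Dusp1 and Dusp6 had r = 0.86 in αTC1 and 0.40 in βTC3, and Dusp1 and Dusp10 0.47 and 0.34. Dusp2 had r between -0.35 and 0.10 with the others. Among 5461 genes compared, those most like Dusp1 were Ccnl1, a cyclin that acts in splicing (mean r of both lines 0.78), Zcchc3 (0.74) and Cebpb, a transcription factor (0.70).

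Ccnl1 fell at 1 h under chaetocin in αTC1 (-0.70 ± 0.12) and under the hydroxamic acids in both lines (-0.42 ± 0.062 and -0.31 ± 0.055). Zcchc3 fell under chaetocin in both, by 0.85 ± 0.16 in αTC1 and by 0.91 ± 0.11 in βTC3. Both genes were picked for likeness to Dusp1 over these same group means, so falls shared with Dusp1 are partly set by that choice. Most like Dusp6 were Brd2, a reader of acetylated histones (0.65), Dusp1 (0.63) and Fam133b (0.63). Most like Dusp10 were Banf1 (0.85), Rtn4 (0.83) and Ckap5 (0.83), with Trappc2l (0.45), Dpcd (0.42) and Gigyf1 (0.40) for Dusp2.

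At 6 h the fall of Dusp1 was found in βTC3. All 8 hydroxamic acids lowered it there, from -1.08 ± 0.13 for PXD101 (2.12-fold, adjusted p = 1.67e-10) to -0.49 ± 0.13 for SAHA. PXD101 arrays were at 7.06, 6.50 and 6.88, below the DMSO range of 7.40 to 8.31. The class change was -0.67 ± 0.074 (1.6-fold lower, adjusted p = 1.03e-12), and 15 of 24 arrays lay below every DMSO array. Within batches it ran from -0.75 to -0.48, below 0 in 6 of 6. Apicidin and 5 code-named compounds (BRD-K17311666, BRD-K22912318, BRD-K92415738, BRD-K90919562 and BRD-A94377914) lowered it too, giving 14 of 29, against 22.1% of all pairs. Of the 14 calls 12 were made whichever array was left out. In all 3 of the 4 members were called for the class, against 50.3% of all genes. Of 8 beta cell markers 5 were called down under the same class (median -0.67), with a summed intensity of 10100 to 13500 against 14000 to 16000 in DMSO. Of 6 alpha cell markers none was called by limma, and 1 had an unadjusted p under 0.05 (Slc38a5, -0.12 ± 0.053), as had 6319 of 11807 genes. The sum of the alpha cell markers, most of it Ttr in DMSO, was 7540 to 9400 against 7530 to 9810. Of 11 non-endocrine markers 1 was up (85.6 to 102 against 90.7 to 101). Their part in the result was not tested.

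In αTC1 at 6 h the class value for Dusp1 was -0.00 ± 0.057, with 4 compounds above 0 and 4 below. Chaetocin alone was called there, at -0.61 ± 0.11 (adjusted p = 4.97e-06). The lines differed in the class effect by 0.67 ± 0.093 (adjusted p = 5.57e-10), as did 32.1% of all genes. For the cyclic tetrapeptides the values were -0.05 ± 0.085 in αTC1 and -0.43 ± 0.10 in βTC3 (adjusted p = 3.70e-04, lost without apicidin and without the batch term). Their difference between lines was 0.38 ± 0.13, called as in 18.8% of all genes but lost with the plate as a block (0.29, adjusted p = 0.247), without the batch term, on centring and without replicate 2 or 3. The ortho-amino anilides were at 0.17 ± 0.078 in αTC1 and 0.17 ± 0.096 in βTC3, neither called.

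Dusp6 fell at 6 h in both lines under the hydroxamic acids. In αTC1 the change was -0.59 ± 0.09 (1.5-fold lower, adjusted p = 3.57e-08), and in βTC3 -0.45 ± 0.087 (1.37-fold lower, adjusted p = 7.22e-06). With Dusp10, 2 of the 4 members were called for the class in αTC1, against 50.9% of all genes. For Dusp6 all 8 compounds were below 0 in each line, 5 and 4 of them called, and within batches 6 of 6 were below 0 in each. The βTC3 call was lost with the array plate as a random block (-0.33, adjusted p = 0.0641) and without the batch term (-0.36, adjusted p = 0.175). ITF-2357 gave the lowest values, with arrays at 5.42, 5.48 and 5.70 in αTC1 (-1.25 ± 0.17, adjusted p = 5.98e-09). Those arrays lay inside the DMSO range of 5.20 to 7.23, which spans the batches, and each was below DMSO of its own batch, by 1.69 to 0.79. In αTC1 4 of 6 alpha cell markers (median -0.53, sum 7240 to 10800 against 7840 to 10800) and 4 of 8 beta cell markers (median -0.36, sum 138 to 249 against 445 to 923) were called down under the class at 6 h, and 2 of 11 non-endocrine markers up (97.7 to 129 against 96.2 to 107). Their part in the result was not tested.

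At 6 h Dusp6 went the other way under chaetocin in αTC1 and under the ortho-amino anilides in βTC3. Chaetocin raised it in αTC1 (arrays at 6.49, 7.22 and 6.63, 0.89 ± 0.18, adjusted p = 2.59e-05), while its value in βTC3 was 0.04 ± 0.16. The ortho-amino anilides raised it in βTC3 (0.37 ± 0.11, adjusted p = 0.00762), a call lost without replicate 3, without the batch term and with the plate as a block. Their value in αTC1 was 0.28 ± 0.12 (adjusted p = 0.0941). The cyclic tetrapeptides gave -0.34 ± 0.13 in αTC1, a call lost in 8 of the leave-outs, and -0.29 ± 0.12 in βTC3 (39.1% and 38.9% of all genes called). Code-named compounds lowered Dusp6 in αTC1: BRD-K92415738 (-0.72), BRD-K22912318 (-0.69), BRD-K17311666 (-0.62) and BRD-K90919562 (-0.59). The calls of BRD-K17311666 and BRD-K90919562 were lost without replicate 1. In βTC3 BRD-K17311666 (-0.43), BRD-A94377914 (-0.42) and apicidin (-0.43) lowered it, each call lost without replicate 2.

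By 6 h Dusp10 had risen with ortho-amino anilides. In βTC3 CI-994 arrays were at 7.90, 7.44 and 7.89, MS-275 at 7.57, 8.01 and 7.41, and MGCD-0103 at 7.43, 7.61 and 7.89. All 9 lay above the highest DMSO array, 6.90 (share of all genes not computed). The class change was 1.01 ± 0.14 (2.02-fold, adjusted p = 1.53e-08), and in αTC1 it was 0.60 ± 0.14 (1.52-fold, adjusted p = 7.21e-04), with 8 of 9 arrays above DMSO. Under this class 2 of the 4 members were called in βTC3 and 1 in αTC1, against 29.4% and 26.6% of all genes.

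Under the hydroxamic acids Dusp10 fell, by 0.29 ± 0.11 in αTC1 (adjusted p = 0.0153) and by 0.32 ± 0.11 in βTC3 (adjusted p = 0.00914, lost without replicate 3), with all 8 compounds below 0 in each line. Chaetocin lowered Dusp10 further, with arrays at 4.85, 6.03 and 6.29 in αTC1 (-1.05 ± 0.20, adjusted p = 1.98e-05) and at 5.65, 5.54 and 6.54 in βTC3 (-0.76 ± 0.19, adjusted p = 0.0017). In βTC3 BRD-K17311666 gave -0.78, called whichever array was left out. BRD-K92415738 (-0.56), BRD-K90919562 (-0.55) and BRD-A94377914 (-0.51) were called down there too, each lost without at least 1 replicate. BIX-01294, the other compound directed at lysine methyltransferases, gave 0.68 ± 0.20 in αTC1 (adjusted p = 0.0297), a call lost without replicate 1, without replicate 3 and without DMSO replicate 2. Its dose differs from that of chaetocin.

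The dimmer probe set of Dusp10 at 6 h gave calls for the rise under the anilides and for the fall under chaetocin in αTC1 (-0.89 ± 0.19, adjusted p = 1.29e-04). It gave none at 6 h in βTC3 under chaetocin (-0.05 ± 0.14, against -0.76 for the brighter one) or BRD-K17311666 (-0.25 ± 0.14, against -0.78). Under the ortho-amino anilides at 6 h it gave 0.53 ± 0.14 in αTC1 and 0.64 ± 0.10 in βTC3, both called, and under the hydroxamic acids -0.09 ± 0.10 and -0.03 ± 0.077, neither called. Of 13 calls of the brighter probe set among single compounds at 6 h, 9 had the same sign in the dimmer one and 4 were called in both. At 24 h the counts were 11 and 6 of 13. No compound was called in opposite directions.

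**Figure D4:**
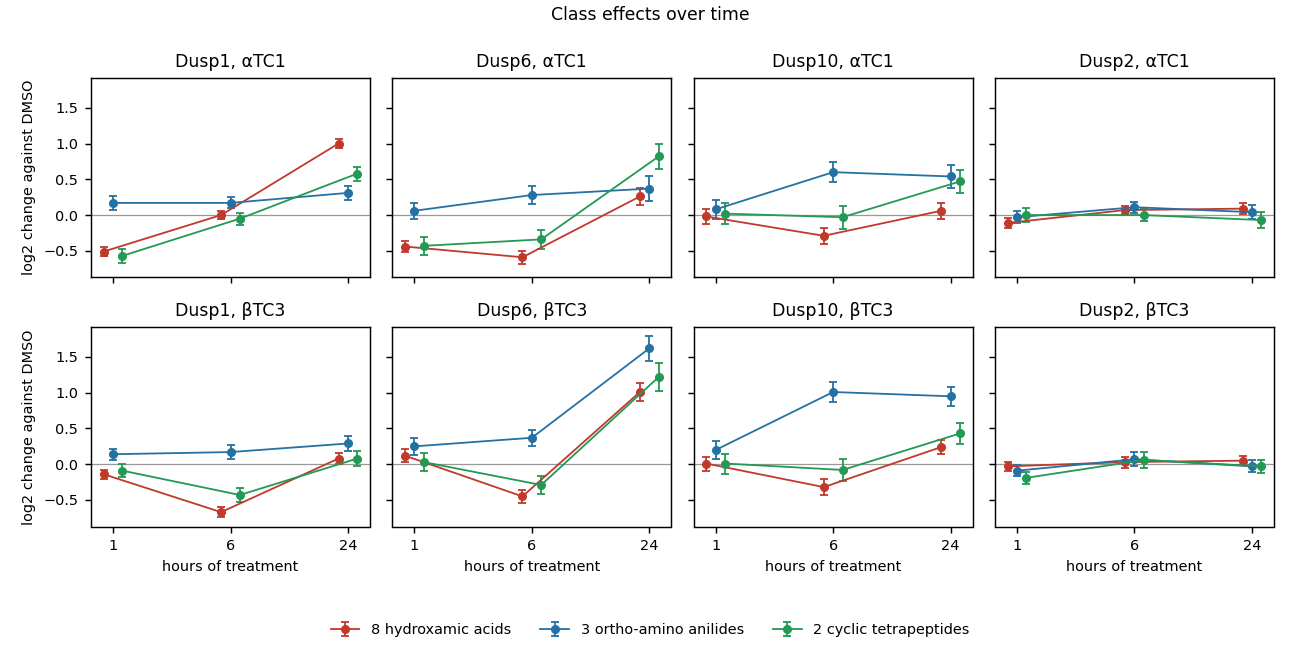
Log2 change against DMSO (vertical axis, mean of the class ± SE) at 1, 6 and 24 h for 8 hydroxamic acids (red), 3 ortho-amino anilides (blue) and 2 cyclic tetrapeptides (green), by gene and line. Under hydroxamic acids Dusp1 goes from -0.51 to 1.00 in αTC1 and has its low point of -0.67 at 6 h in βTC3, and Dusp10 under the anilides is at 1.01 at 6 h and 0.95 at 24 h in βTC3.

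By 24 h Dusp1 had risen in αTC1. Under ITF-2357 its arrays were at 11.06, 10.96 and 10.75, against 8.90 to 9.52 in DMSO, a change of 1.66 ± 0.13 (3.16-fold, adjusted p = 1.53e-18). Trichostatin A (1.40 ± 0.13), pyroxamide (1.39 ± 0.13), PXD101 (1.29 ± 0.13) and CRA-024781 (1.08 ± 0.13) were over 2-fold and lay apart from DMSO in every array. LBH-589 (0.11 ± 0.13) and scriptaid (0.41 ± 0.15) were not called. The class change was 1.00 ± 0.068 (2-fold, adjusted p = 2.85e-21), and 19 of 22 arrays lay above every DMSO array. Within batches it ran from 0.00 to 1.95, below 0 in none of 7. Dusp1 was the 1 member of 4 called for the class, against 50.4% of all genes.

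Across all compounds 14 of 29 were called, against 21.3% of all pairs, all up and 8 of them whichever array was left out. In 10 every array lay above DMSO, against 6.87% of all pairs. In βTC3 the class value was 0.08 ± 0.075, and the lines differed by 0.92 ± 0.10 (adjusted p = 6.64e-14), as did 35.8% of all genes. The cyclic tetrapeptides raised it in αTC1 by 0.58 ± 0.099, and their value in βTC3 was 0.08 ± 0.11. The difference of 0.50 ± 0.15 was called, as in 24% of all genes, but lost with the plate as a block (0.43, adjusted p = 0.102), without the batch term and without replicate 3. The rise followed the class change of -0.51 at 1 h and -0.00 at 6 h in αTC1. In αTC1 at 24 h 4 of 11 non-endocrine markers were called up under the hydroxamic acids, and the summed intensity of that list was 95.2 to 149 against 90.8 to 113 in DMSO. 3 of 6 alpha cell markers were called down, with a sum of 4910 to 11900 against 6560 to 11000. Of 8 beta cell markers 4 were down (sum 135 to 998, median 237, against 687 to 1000, median 763). Of 5 markers of other islet hormone cells 3 were up and 1 down (50.7 to 171 against 46.6 to 73.3). Their part in the result was not tested.

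In βTC3 at 24 h Dusp1 moved in both directions. It rose under 5-azadeoxycytidine (arrays at 9.44, 8.74 and 9.74, 1.09 ± 0.14, 2.13-fold, adjusted p = 4.76e-08), zebuarine (9.64, 9.12 and 8.66, 0.93 ± 0.14) and chaetocin (9.01, 9.44 and 9.25, 1.02 ± 0.14). All 9 arrays lay above the DMSO range of 7.62 to 8.62, and the 3 calls were made whichever array was left out. The first 2 compounds are nucleoside analogues given at the same dose, and 990 and 397 of 11807 genes were called under them in this comparison. RG-0108, which is not one, had no called member at any time, but 0 of 11807 genes were called under it here. A link to structure was not tested.

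It fell under BRD9773 (6.78, 8.09 and 7.87, -0.64 ± 0.14, adjusted p = 5.83e-04, lost without replicate 1), BRD8451 (-0.50 ± 0.14), BRD5298 (-0.46 ± 0.14), BRD6929 (-0.40 ± 0.14), BRD-K22912318 (-0.38 ± 0.14) and apicidin (-0.35 ± 0.14). Each of these falls was lost without at least 1 replicate, and none had all arrays below DMSO. The cyclic tetrapeptides split here, since HC-toxin gave 0.51 ± 0.14, a call lost without any 1 of its replicates.

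Dusp6 was the member raised by most compounds at 24 h in βTC3, 19 of 29, with none called down, against 9.49% of all pairs up and 8.73% down. 11 of the 19 were called whichever array was left out. DMSO arrays ranged from 4.13 to 6.02. Trichostatin A arrays were at 7.88, 6.89 and 7.03 (1.93 ± 0.24, 3.8-fold, adjusted p = 3.61e-10), all above that range. CI-994 arrays were at 6.91, 6.20 and 7.12 (1.68 ± 0.24), MS-275 at 6.20, 6.44 and 7.25 (1.60 ± 0.24) and MGCD-0103 at 6.44, 6.79 and 6.66 (1.57 ± 0.24).

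The class changes were 1.62 ± 0.17 for the ortho-amino anilides (3.07-fold), 1.22 ± 0.19 for the cyclic tetrapeptides (2.33-fold) and 1.01 ± 0.13 for the hydroxamic acids (2.01-fold), each kept whichever replicate or compound was left out. 14 of 29 compounds had all arrays above DMSO, against 5.24% of all pairs. Chaetocin (1.59 ± 0.24), BRD-A94377914 (1.32 ± 0.25), 5-azadeoxycytidine (1.05 ± 0.25) and zebuarine (0.99 ± 0.25, lost without replicate 1 or 2) were among them. Of the 4 members 2 were called for the hydroxamic acids and for the cyclic tetrapeptides and 3 for the ortho-amino anilides, against 43.2%, 25.5% and 43.7% of all genes. Among these calls 3 were lost under some settings. Dusp10 under the hydroxamic acids (0.24 ± 0.10) was lost in 12 of 23 leave-outs, among them replicates 1 and 2, with the plate as a block (adjusted p = 0.077), on centring, without the batch term and with only the arrays compared. Dusp10 under the cyclic tetrapeptides (0.43 ± 0.15) was lost without any 1 of the 3 replicates, without apicidin, without DMSO replicate 12 and with only the arrays compared. Dusp1 under the anilides (0.29 ± 0.098) was lost without replicate 3 or CI-994, with the plate as a block (adjusted p = 0.0869) and without the batch term. The rises are set against DMSO arrays in which Dusp6 itself was 2.27-fold lower than at 1 h. Among markers in βTC3, 6 of 8 beta cell markers (sum 9540 to 14800 against 12000 to 15400) and 2 of 6 alpha cell markers (7010 to 8990 against 7240 to 9150) were called down under the hydroxamic acids at 24 h. Up were 2 of 5 markers of other islet hormone cells (5800 to 8940 against 5510 to 7470) and 1 of 11 non-endocrine markers (86 to 105 against 85.6 to 101). Their part in the result was not tested.

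In αTC1 Dusp6 was raised by 7 compounds and lowered by 2 at 24 h, against 10.6% of all pairs up and 10.7% down. SAHA (arrays at 6.73 and 7.03, 1.34 ± 0.28, 2.54-fold) and HC-toxin (6.92, 7.23 and 6.73, 1.29 ± 0.23, 2.44-fold) raised it most, and LBH-589 raised it by 0.94 ± 0.23, a call lost without replicate 3. ITF-2357 (5.48, 5.37 and 5.97, -0.62 ± 0.23, adjusted p = 0.0209) and BIX-01294 (5.56, 4.88 and 4.50, -0.87 ± 0.23, adjusted p = 0.0271) lowered it. The first of these calls was lost without replicate 1 or 3, and the second without replicate 2 or 3.

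The hydroxamic acids had no common direction for Dusp6 in αTC1 (-0.62 to 1.34), and their class change was 0.26 ± 0.12 (adjusted p = 0.0808). It was called without replicate 1, without ITF-2357, PXD101 or trichostatin A, and with only the arrays of the groups compared (0.27 to 0.38). The lines differed in the class effect by -0.75 ± 0.18 for the hydroxamic acids (adjusted p = 3.15e-04) and by -1.25 ± 0.24 for the ortho-amino anilides (adjusted p = 1.28e-05), where 35.8% and 27.9% of all genes differed. The cyclic tetrapeptides raised Dusp6 in αTC1 by 0.82 ± 0.18, a call lost without HC-toxin. Dusp1, Dusp6 and Dusp10 were called up for that class, against 36% of all genes. Dusp10 (0.47 ± 0.16) was lost without replicate 2, replicate 3 or HC-toxin (0.29, adjusted p = 0.299), so that Dusp1 alone was called without HC-toxin.

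Dusp10 stayed up under the ortho-amino anilides at 24 h, by 0.95 ± 0.13 in βTC3 (1.93-fold, adjusted p = 2.41e-09) and 0.54 ± 0.16 in αTC1 (1.46-fold, adjusted p = 0.00264). The dimmer probe set gave 0.68 ± 0.092 and -0.02 ± 0.12, so it did not carry the change in αTC1. BRD6929 raised Dusp10 in both lines (0.95 ± 0.21 and 0.68 ± 0.19, the latter lost without replicate 1), and BRD5298 in αTC1 (0.79 ± 0.21). In all 6 and 7 of 29 compounds were called, all up, against 21.3% and 18.2% of all pairs. Of these calls 2 and 4 were made whichever array was left out. In αTC1 the dimmer probe set gave no call under BRD6929 (0.17 ± 0.16) or BRD5298 (0.27 ± 0.16). There it called falls under ITF-2357 (-0.80 ± 0.16, adjusted p = 1.34e-05), pyroxamide (-0.71), PXD101 (-0.40), chaetocin (-0.35) and the hydroxamic acids as a class (-0.28 ± 0.084). It called rises under apicidin (0.51) and the cyclic tetrapeptides as a class (0.40). In αTC1 2 of the 4 members were called for the ortho-amino anilides, against 43.8% of all genes, of which Dusp1 (0.31 ± 0.094) was lost without MS-275.

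**Figure D5:**
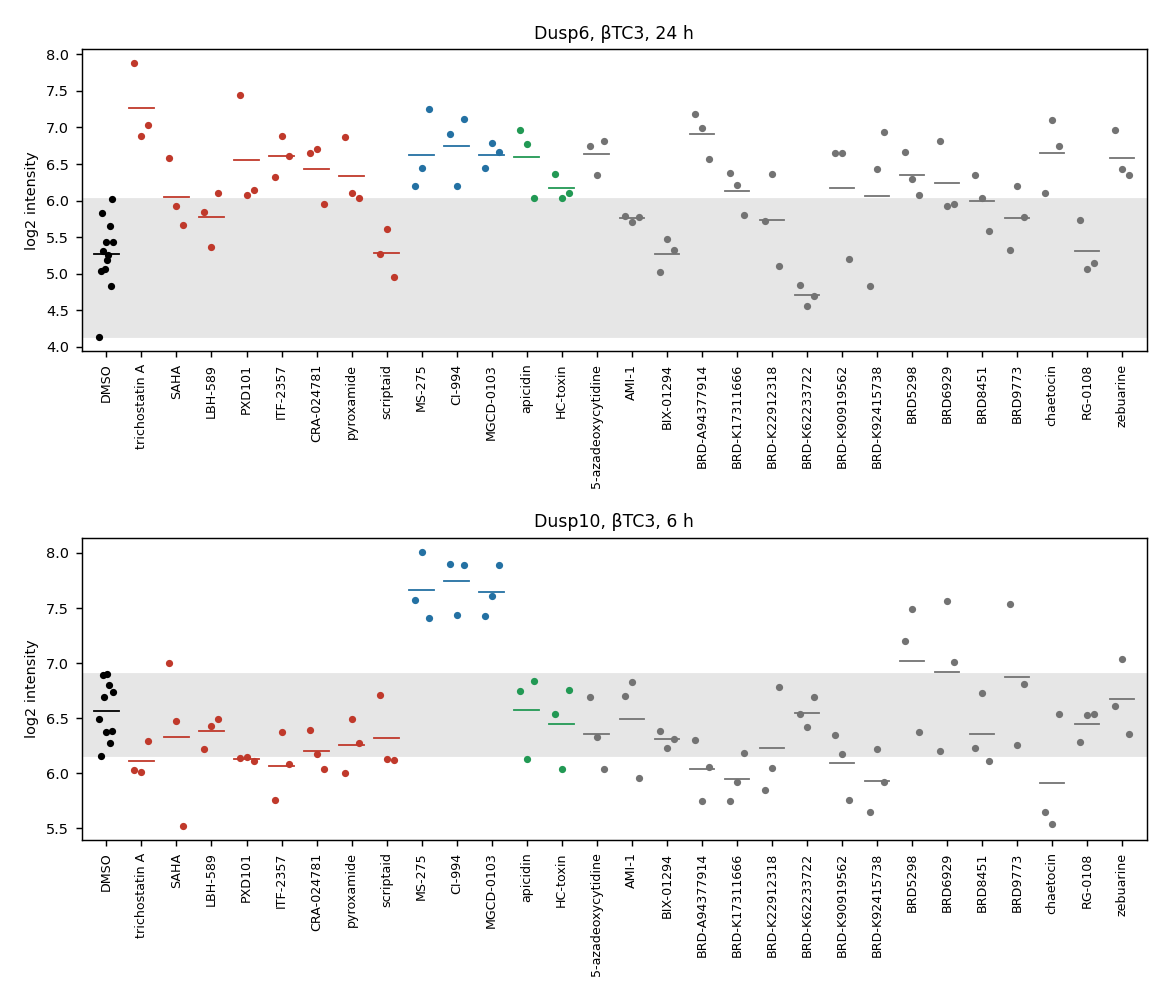
Log2 intensity in βTC3 of Dusp6 at 24 h (upper) and Dusp10 at 6 h (lower) for DMSO and each compound, 1 point per array, a bar for the group mean and a grey band for the DMSO range; hydroxamic acids are red, ortho-amino anilides blue, cyclic tetrapeptides green and others grey. For Dusp6 14 compounds lie wholly above the band, and for Dusp10 the 9 anilide arrays lie above its upper edge at 6.90.

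Dusp2 was dim on all arrays, with group means in DMSO between 3.17 and 3.36, where arrays compress differences. It was called under 2 compounds. Chaetocin at 24 h in αTC1 gave 3.76, 4.40, 3.83 and 3.49 (0.63 ± 0.13, adjusted p = 3.15e-05), above the DMSO range of 2.85 to 3.43. ITF-2357 at 6 h in βTC3 gave 3.83, 3.79 and 3.74 (0.56 ± 0.14, adjusted p = 5.87e-04), above 3.00 to 3.42. Both were called whichever array was left out.

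Counted by compound over both lines and all times, BRD-K17311666 had 9 of 24 changes of members called (37.5%, against 21.2% of all genes), chaetocin 8 (33.3% against 22.5%) and ITF-2357 7 (29.2% against 27.7%, near the background). AMI-1, RG-0108 and BRD-K62233722 had none in limma, at any time or in either line, against 0%, 0.00706% and 0.353% of all genes. LBH-589, at the lowest dose of all compounds, had 2 (8.33% against 13.6%) and scriptaid 1 (4.17% against 10.4%). Since doses differ, these counts do not rank the compounds.

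ITF-2357 and pyroxamide are the hydroxamic acids given at a common dose, 10 µM, which allows a direct comparison. Of 24 differences (4 genes, 2 lines and 3 times) 2 were called, both in βTC3 at 6 h, where 5.12% of all genes were. In αTC1 0%, 0.788% and 2.34% of all genes were called at 1, 6 and 24 h, and in βTC3 0% at 1 h and 16.3% at 24 h. Dusp2 was higher under ITF-2357 (3.83, 3.79 and 3.74 against 3.29, 2.98 and 3.08), by 0.67 ± 0.17 (adjusted p = 0.00693, lost without replicate 2 or 3). Dusp6 was lower by 0.59 ± 0.19 (adjusted p = 0.0446, lost without any 1 replicate).

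At 24 h in αTC1, where both compounds raised Dusp1, the difference was 0.27 ± 0.16 (95% interval -0.05 to 0.58, adjusted p = 0.51). For Dusp6 it was -0.74 ± 0.30 (-1.32 to -0.16, adjusted p = 0.215). At 1 h the Dusp1 difference in αTC1 was 0.02 ± 0.17 (-0.32 to 0.35).

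The rest of the pathway is set beside the members at 6 h and 24 h, when 50.9% and 50.4% of all genes were called under the hydroxamic acids in αTC1 and 50.3% and 43.2% in βTC3. Under the hydroxamic acids at 24 h in αTC1, 7 of 13 ERK-responsive immediate early genes rose and 1 fell (median 0.32, against 0.00 for all genes), and in βTC3 6 rose and none fell (median 0.14, against 0.01). At 6 h the counts were 7 up and 2 down in αTC1 and 9 up and 2 down in βTC3, with medians of 0.30 and 0.54, against -0.01 for all genes in each line. The median of the 4 members at 6 h was -0.14 and -0.39. Of 6 ERK feedback inhibitors 2 rose and 2 fell in αTC1 at both times. Of 4 other dual-specificity phosphatases 2 rose and 1 fell at 6 h in αTC1. Nothing particular to the pathway is read from these counts.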

How the data were processed

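Biotin-labelled cRNA of αTC1 and βTC3 cells was measured on 594 Affymetrix HT mouse arrays, per the labels' protocols. The submitters' processing notes name RMA, whose version is not given in the sources used here. What the authors deposited is a normalized intensity of each probe set. Since the values span 3.962 to 13640 and are linear, log2 of the deposited values was taken, although the design had assumed that they were log2 already. Precision is limited by how many arrays a group holds.

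Of 22716 probe sets 18003 carried 1 gene symbol, 287 several and 4426 none in the annotation used, and only the first kind was kept. Each of 11807 genes was represented by its probe set of highest mean. Array medians ran from 4.363 to 4.729. Line, compound, dose, time, batch and replicate came from sample titles. limma 3.58.1 (R 4.3.3, data.table package 1.17.8) was fitted for each line and time with all arrays and 7 batches (4 to 10) as a fixed term, and p-values were adjusted over all genes within a comparison. Joint fits gave the differences between lines and the course of DMSO. Class means weight compounds equally.

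The members and gene lists were chosen with earlier results of these data known, so p-values over members are not independent support. The genes named are the members, up to 4 called genes of each list at 1 h, the 3 genes most correlated with each member, and Gcg and Ins2. List genes named under chaetocin, and Slc38a5, Sst and Ttr, were named after their values were seen.

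The code was tested on simulated data. Alternatives left out the batch term, or took the 9 array plates as a random block in place of the batch term. Others used a further quantile normalization, centring, a filter on dim genes, the mean of probe sets or only the arrays compared. Further ones used 1 adjustment over all compounds, lines and times, or a replicate block. Each replicate number was also left out, over all compounds at once. So were each compound of a class and each DMSO array (the last added after the data were seen). Same-numbered arrays of ITF-2357 and pyroxamide deviated together in 1 of 6 groups, βTC3 at 1 h, where all 3 pairs shared a batch (correlations 0.39, 0.37 and 0.53). In the other groups 1 of the pairs was over 0.1, and the titles do not say that a number marks a shared culture.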

Additional observations from a re-analysis of the deposited data

Results flagged for a closer look

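In 8 cases the change of a phosphatase gene differed between the lines by limma's interaction test, given as αTC1 minus βTC3 on the log2 scale. At 1 h these were the fall of Dusp1 under chaetocin (-1.09) and of Dusp6 under the hydroxamic acids (-0.57). At 6 h they were Dusp1 under the hydroxamic acids (0.67) and the cyclic tetrapeptides (0.38, adjusted p = 0.0298). At 24 h they were Dusp1 under the hydroxamic acids (0.92) and the cyclic tetrapeptides (0.50, adjusted p = 0.00664), and Dusp6 under the hydroxamic acids (-0.75) and the ortho-amino anilides (-1.25). Both cyclic tetrapeptide values lost their call without replicate 3 (adjusted p = 0.0517 at 6 h and 0.176 at 24 h), and that at 6 h also without replicate 2 (adjusted p = 0.0801) and on centring (adjusted p = 0.0557). With the array plate as a random block both lost it (0.29 at 6 h, adjusted p = 0.247, and 0.43 at 24 h, adjusted p = 0.102), as they did without the batch term (0.24, adjusted p = 0.523, and 0.46, adjusted p = 0.138). The differences at 1 h lost their calls too. That of Dusp6 was lost without replicate 1 (adjusted p = 0.108) or 2 (0.129), with the plate as a block (0.428) and without the batch term. That of Dusp1 under chaetocin was lost without the batch term (adjusted p = 0.0997).

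Such differences were common among all genes at 6 h and 24 h. Under the hydroxamic acids 32.1% of genes were called at 6 h and 35.8% at 24 h, under the cyclic tetrapeptides 18.8% and 24%, and under the ortho-amino anilides 27.9% at 24 h. At 1 h 0.186% were called under the hydroxamic acids and 0.0254% under chaetocin. Dixon's test for a sample far from the others applied to 2 groups of 4 to 10 arrays (chaetocin at 24 h in αTC1 and DMSO at 6 h in βTC3) and the 4 members, and in none of these 8 cases was the critical value passed.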

How the results depend on the processing

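The alternatives other than DMSO arrays left out gave 2550 recomputed values of 217 tested. Of these 2233 kept their side of the threshold, 301 lost a call and 15 gained one. Calls lost without a DMSO array are not in this tally. Uncalled values, for which a sign has no test, changed sign in 0 to 7 cases per setting, 6 without the batch term and 7 without replicate 2. In 1 case a value changed sign and was called, namely Dusp1 under the cyclic tetrapeptides at 24 h in βTC3 (0.08 ± 0.11), which was -0.35 (adjusted p = 0.0408) without HC-toxin and 0.51 (adjusted p = 0.0303) without apicidin, since the compounds had opposite signs. Leaving out the batch term ended 60 calls, and the array plate as a random block ended 38. The plate setting also drops the batch term, so it is not a separate check and its losses cannot be put down to plate alone. The cause was not tested.

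Without the batch term the count of calls at 1 h in αTC1 was 1 in place of 6, at 6 h in βTC3 19 in place of 32, in DMSO over time 4 in place of 7, and for line differences at 1 h 0 in place of 2. With the array plate as a random block the last count was 1. With 1 adjustment over all compounds, lines and times 24 pairs were called at 1 h in αTC1 and 3 in βTC3. That adjustment pools 1 h with 6 h and 24 h, where far more genes were called, which loosens the cutoff at 1 h. The share of all genes called at 1 h under it is not given, so the higher counts are not read as more changes. In βTC3 at 1 h, where none was called, the mean of all probe sets gave 2 calls and the filter on dim genes, which drops Dusp2, gave 1. ITF-2357 against pyroxamide, with 2 calls, had 1 under the plate block, the filter on dim genes, quantile normalization and no batch term, and 0 with only the arrays compared. Counts with the cyclic tetrapeptides went from 8 to 5 without apicidin.

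Leaving out 1 replicate, compound or DMSO array gave 1 to 9 calls at 1 h in αTC1 and 0 to 1 in βTC3, 10 to 20 and 24 to 32 at 6 h, and 23 to 30 and 23 to 38 at 24 h. It gave 9 to 10 for the hydroxamic acids (10), 6 to 10 for the anilides (8), 5 to 6 for the tetrapeptides (8), 4 to 6 for class differences between lines (6), 1 to 2 for line differences at 1 h (2) and 0 to 1 for the pair at 10 µM (2). With the replicate number as a block that pair had 2 calls, so the block changed no call, also in βTC3 at 1 h, where same-numbered arrays share batch and deviation. DMSO titles hold no number. Centring moved no comparison's median by over 0.086.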
